A study of Homo sapiens with 4 samples.

Results

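The 8 subunit genes of the chaperonin TRiC/CCT, namely TCP1, CCT2, CCT3, CCT4, CCT5, CCT6A, CCT7 and CCT8, and the HSP90 cochaperone genes AHSA1 and STIP1 were examined in the RNA-seq data of the HuR inhibitor KH-3. They were chosen by gene symbol, as every listed transcript of these 10 genes. All 10 were found, with 63 transcripts of the 43596 in the table, which covers 15113 gene symbols. The cells were MDA-MB-231, a widely used line from a human breast tumour that lacks the estrogen, progesterone and HER2 receptors. They received 10 µM KH-3 or the vehicle DMSO for 24 h, with 2 libraries of biological replicates in each condition. The table analysed here gives 1 mean normalized read count per transcript, averaged over libraries by the authors. No level below can therefore be assigned to treated or to untreated cells, and the change with KH-3 is not analysed here. The sources do not say which libraries were averaged, and the methods also name a lower dose of KH-3.

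TRiC/CCT is a barrel of stacked rings in the cytosol, and each ring holds 1 copy of each of its different subunits. It closes over newly made proteins, above all actin and tubulin, and folds them with energy from ATP. HSP90 folds another set of clients, among them many kinases, with the help of cochaperones. AHSA1 speeds up the ATPase of HSP90, and STIP1, also known as HOP, bridges HSP70 and HSP90 and hands clients from the one to the other. Genes of both groups are known as targets of heat shock factor, the transcription factor that answers misfolded protein. HuR, the target of KH-3, is an RNA-binding protein known for stabilising mRNAs with AU-rich elements.

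The line was checked against marker genes. The level of a gene is given here per kb, as the authors' mean normalized read count of each listed transcript divided by its length in kb and summed over the transcripts of the gene. VIM, the mesenchymal filament protein, had a level of 10135 per kb, the highest of the 7 genes listed for this line, and S100A4 had the lowest, 305. ESR1, PGR and CDH1, markers of other breast cancer subtypes, had no row, and ERBB2, EPCAM and GATA3 lay between 29.5 and 44.3 per kb. Among markers of other cell types PTPRC and ALB had no row, PECAM1 had 4.08 per kb and COL1A1 39.4. The lowest mean normalized read count in the table was 7.34, and how transcripts without a row were left out is not stated.

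All 8 CCT subunits were among the most abundant mRNAs of the cells. Their levels ran from 1876 to 7675 per kb, with a median of 3509, while the median of all 15113 genes was 108. In percentiles of all genes they lay from 96.7 to 99.5. The 10 genes together had a median level of 3103 per kb, 28.7 times that of all genes, and a median percentile of 98.4. The pooled mean carries no error, so no interval can be put on any of these values, and they are given as a description without a test.

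**Figure D1:**
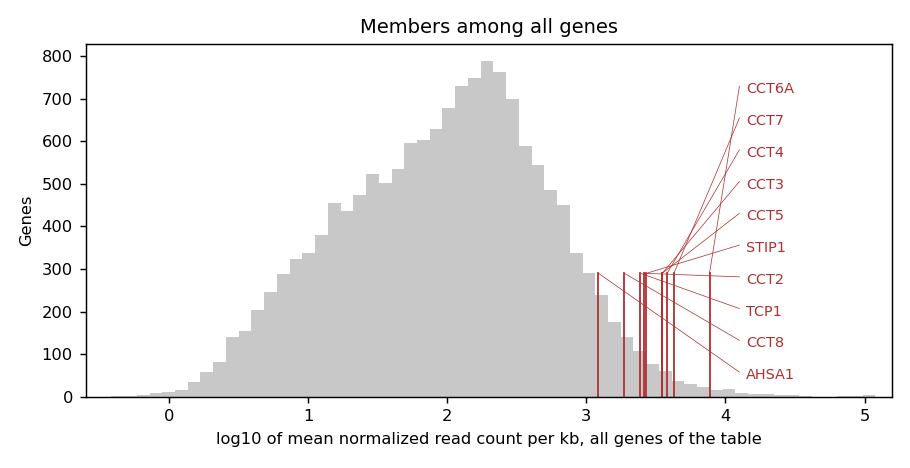
Histogram of the level of all 15113 genes, as log10 of the mean normalized read count per kb on the x axis and the number of genes on the y axis. The red lines mark the 8 CCT subunits, AHSA1 and STIP1, all to the right of the bulk of genes, from 1221 per kb for AHSA1 to 7675 per kb for CCT6A.

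Ordered by level per kb, CCT6A, the zeta subunit, came first with 7675. It was followed by CCT7, the eta subunit, with 4257 per kb, and CCT4, the delta subunit, with 3808. CCT3, the gamma subunit, and CCT5, the epsilon subunit, had nearly the same level, 3514 and 3504 per kb, a ratio of 1.00. CCT2, the beta subunit, had 2587 per kb, and TCP1, the alpha subunit after which the complex was first named, had 2444. CCT8, the theta subunit, was lowest with 1876. The highest and the lowest subunit thus differed by a ratio of 4.09, and CCT7 and CCT8, once CCT6A is set aside, by 2.27. Neighbours in the order from CCT7 to CCT3 and from CCT2 to TCP1 differed by ratios of 1.06 to 1.12. Whether such gaps exceed the spread between libraries is not known from a pooled mean.

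Much of the gap between CCT6A and the other subunits lay in transcripts that are not protein-coding. With protein-coding transcripts alone CCT7 was highest, at 4229 per kb, and CCT6A had 3346, CCT3 3248, CCT4 2829, TCP1 2386, CCT2 1897 and CCT8 1432. CCT5 moved from the fifth place to the last, at 1133 per kb. The ratio of the highest to the lowest subunit was then 3.73. The first place and the last place in the order therefore both depended on which transcripts were added up. The first place of CCT7 rested largely on CCT7-010, a coding transcript of 1234 bases with 3353 per kb. CCT7-001, of full coding length, had 184.1 per kb, while the full-length CCT6A-001, of 2719 bases, had 3216. Division by length gives the shorter CCT7-010 more weight per read.

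**Figure D2:**
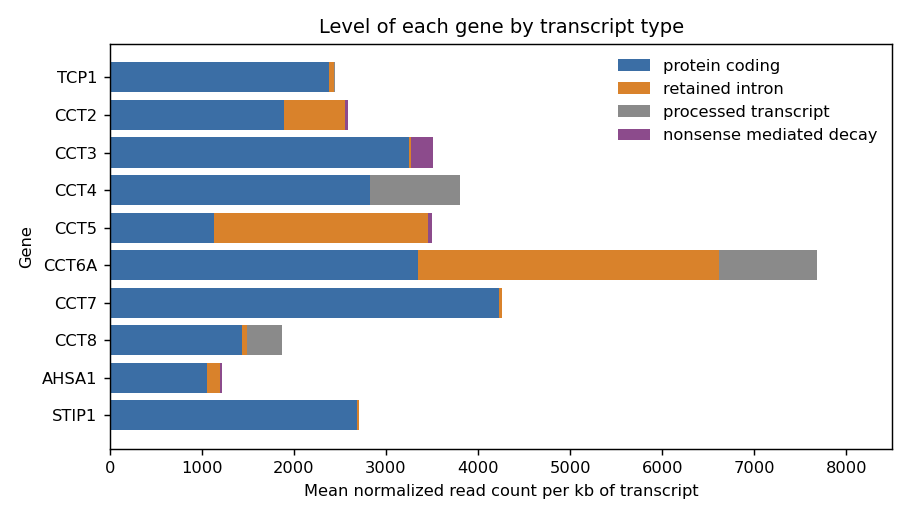
Level of each gene as a horizontal bar, in mean normalized read count per kb of transcript, split by transcript type in the colours of the key. The orange parts, transcripts with a retained intron, are long in CCT5 and CCT6A and make up 66.2% and 42.6% of these bars.

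Of the 63 transcripts, 30 were protein-coding, 23 were annotated with a retained intron, 5 as targets of nonsense-mediated decay and 5 as processed transcripts without a coding sequence. Their lengths ran from 261 to 3675 bases. A mean normalized read count under 50 was found for 25 of them, 39.7%, against 49.6% of all transcripts in the table. At least 1000 was reached by 16, 25.4% against 5.95% of all transcripts, and 15 of these were protein-coding. The exception was CCT5-008, a retained-intron transcript of 555 bases. Over the 10 genes, protein-coding transcripts made up 72.2% of the summed level per kb. The median of this share over the 10 genes was 81.3%, against 77.7% for the 4760 genes of the table with a protein-coding transcript and 4 or more listed transcripts.

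CCT5 was the only one of the 10 genes whose transcript with the highest level per kb was not protein-coding. CCT5-008 had a mean normalized read count of 1246 and a level of 2245 per kb, 64.1% of the level of the gene. In GENCODE release 44 on hg38 it has 3 exons on chromosome 5 from 10250309 to 10255030, near the 5′ end of the gene, and its last exon runs into an intron that coding transcripts splice out. CCT5-002, the coding transcript with the most reads, had a mean normalized read count of 1923 over 1933 bases, 995 per kb. In CCT6A the short transcripts were several. CCT6A-004, of 261 bases, had 1342 per kb, CCT6A-010 had 843 and CCT6A-005 had 583, each with a retained intron, and the processed transcript CCT6A-007 had 1059.6. CCT6A-001, the coding transcript, had 3216 per kb and 76.5% of the read count of the gene. Division by the whole length of a transcript, with no correction for fragment size, gives short transcripts a high weight. On the scale of read counts the protein-coding share was 64.2% in CCT5 and 79.3% in CCT6A.

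The sequences at which these transcripts run on into the intron are shown as the points where they part from the spliced mRNA. Each is given 5′ to 3′ on the plus strand, with the last 12 bases of the exon in lower case and the first 12 bases of the retained intron in capitals. All start the intron with GT, the usual 5′ splice site.
CCT5-008, chr5:10254827-10254850: caggagtggttgGTAAGAAAAGAC
CCT6A-004, chr7:56055786-56055809: gtcttaacagagGTATGTATTAAA
CCT6A-010, chr7:56058691-56058714: aaatatggagagGTATCCGAGTAA
CCT6A-005, chr7:56061838-56061861: acctgaacacagGTAAGAGAATGC
The CCT5 intron is 1116 bases long, and the CCT6A introns are 513, 841 and 833 bases long in the same order. None of these introns lies whole within the transcript, so the transcripts end inside them.

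The other subunits had larger coding shares. TCP1 had 97.6% of its level per kb in coding transcripts, CCT3 92.4% and CCT7 99.3%. In CCT2 the coding share was 73.4%, and CCT2-016, a retained-intron transcript of 567 bases at the 3′ end, had 617 per kb. In CCT4 it was 74.3%, with the processed transcripts CCT4-003 and CCT4-004 at 718 and 260.1 per kb. In CCT8 it was 76.3%, and the processed transcript CCT8-004 had 384 per kb.

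The coding transcript with the most reads encoded the full-length protein in 6 of the 10 genes, and a shorter one in TCP1, CCT3, CCT5 and CCT7. The canonical transcript, as Ensembl marks it in GENCODE release 44, was listed for all 10 genes and had the most reads in 6. Over the 4612 genes with a canonical coding transcript and 4 or more listed transcripts this was so in 47.1%. A top transcript other than the canonical one is thus not particular to these genes. In TCP1 the canonical TCP1-001, with a coding length of 1668 bases, had 16.2% of the read count, with 663 reads on the normalized scale. TCP1-005 and TCP1-004, with coding lengths of 996 and 1203 bases, had 1705 and 1668. CCT7 was the sharpest case, since the canonical CCT7-001 had 6.22% of the read count and CCT7-010 had 72.9%. The coding length of CCT7-010 is 1017 bases, 62.4% of the 1629 bases of CCT7-001.

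In CCT3 the canonical CCT3-001 had 18.1% of the read count and CCT3-017 had 74.2%, with coding lengths of 1635 and 1521 bases. In CCT5 the canonical CCT5-001 had 13.4%, and CCT5-002, with 1560 coding bases against 1623, had 50.8%. The reverse held in CCT2, where the canonical CCT2-001 had 87.5% of the read count. CCT4-001 had 53.4% and the shorter CCT4-201, with 1527 coding bases against 1617, had 39.0%. CCT8 was spread over several transcripts, with 38.1% on the canonical CCT8-003, 31.4% on CCT8-201 and 20.1% on the processed CCT8-004. The median share of the canonical transcript was 45.7% over the 10 genes and 33.5% over the 4612 genes, with genes whose canonical transcript is not listed set to 0. These transcripts overlap over most of their exons, and the split of their reads is the estimate of eXpress, not a count of reads that belong to 1 transcript alone.

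**Figure D3:**
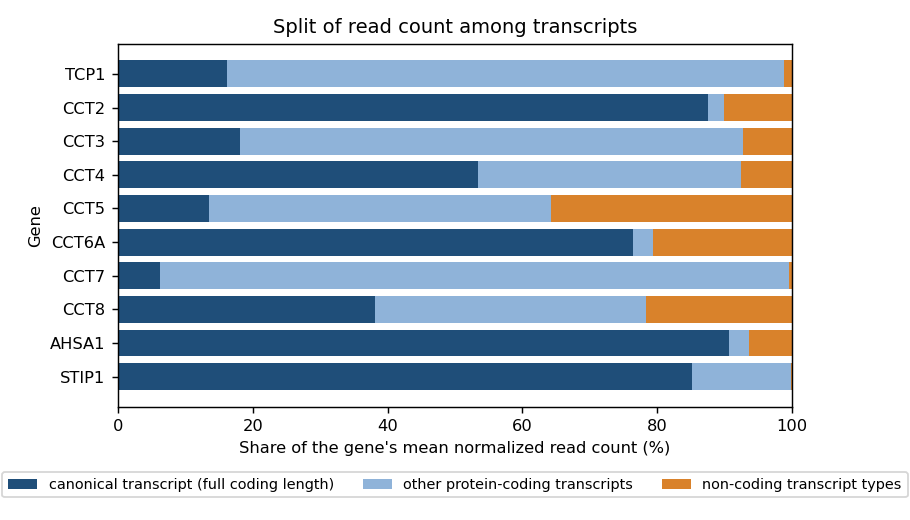
Share of the mean normalized read count of each gene, in percent, that fell on the canonical transcript (dark blue), on other protein-coding transcripts (light blue) and on all other types (orange). The key calls the orange part non-coding, but it includes targets of nonsense-mediated decay, which have a coding sequence. The dark part is 90.7% in AHSA1 and 6.22% in CCT7, and lies under 20% in TCP1, CCT3, CCT5 and CCT7.

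The order of the subunits was followed through the ways of adding up transcripts. With the transcript of the most reads alone, CCT7 had 3353 per kb, CCT6A 3216, CCT3 2683, CCT2 1850.2, CCT4 1559, TCP1 1216, CCT5 995 and CCT8 679. CCT6A and CCT7 held the upper 2 places in each of the 4 settings plotted, and CCT8 was last in 3 of them. A minimum of 50 reads per transcript left the order as it was with all transcripts. Summed read counts, with no division by length, gave another order, since CCT4 with 7359 and CCT3 with 6560.0 lay above CCT7 with 5674, while CCT6A stayed first with 11436 and CCT8 last with 3577.

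**Figure D4:**
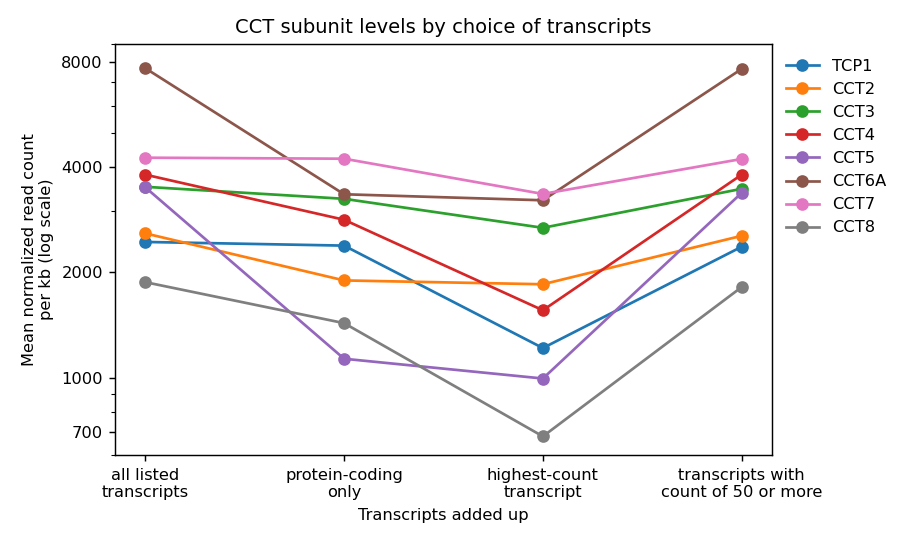
Level of the 8 CCT subunits in mean normalized read count per kb (log scale) with all listed transcripts, with protein-coding transcripts alone, with the transcript of the highest count alone, and with transcripts of at least 50 reads. The CCT5 line drops from 3504 to 1133 and the CCT6A line from 7675 to 3346 when only protein-coding transcripts are kept, while CCT7 moves from 4257 to 4229.

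The HSP90 cochaperones differed from each other. STIP1 had a level of 2702 per kb, at percentile 98.0, and AHSA1 had 1221 per kb, at percentile 94.1, a ratio of 2.21. Both were carried by their canonical transcript. STIP1-001 had a mean normalized read count of 4352 and 85.2% of the reads of the gene, and AHSA1-001 had 1414 and 90.7%. Only CDC37, which brings kinases to HSP90, had more than STIP1 among the 20 other HSP90 cochaperones listed, with 3028 per kb. The median of these 20 genes was 652 per kb, against 108 for all genes, and the lowest was CDC37L1 with 61.8. Of the 20, 16 lay below CCT8, the lowest CCT subunit. CCT8 was at percentile 96.7, so nearly all genes of the table lie below it as well. AHSA2, the close relative of AHSA1, had 202 per kb.

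Genes that work with the chaperonin were read on the same scale. The 9 cofactors, the prefoldin subunits that deliver actin and tubulin chains and the phosducin-like and thioredoxin-like regulators, had a median of 740.0 per kb. They ran from PDCL with 234 to PFDN2 with 2095, and 8 of the 9 lay below CCT8. The 9 clients listed had a median of 1526 per kb, with ACTB, cytoplasmic actin, at 24378 and FZR1, an activator of the anaphase-promoting complex, at 396. In this list 3 genes lay above CCT6A and 6 below CCT8. With CCT8 at percentile 96.7 and CCT6A at 99.5, most genes of the table lie below both, and the median of all genes was 108. The counts below CCT8 thus do not mark the cofactors or the clients as low. HSPD1 and HSPE1, which form the chaperonin of the mitochondrion, had 5714 and 4031 per kb, within the range of the CCT subunits. HSP90AA1 had 22746 per kb, the highest of the 6 HSP90 and HSP70 genes.

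Related copies of the subunits took few reads. CCT6B, the testis paralog of CCT6A, had no row. The pseudogenes CCT6P1, CCT6P3 and CCT8P1 had listed transcripts with mean normalized read counts between 7.62 and 82.1, against 8744 for CCT6A-001 and 1362 for CCT8-003. Reads that fit a gene and its copy equally well are divided between them by the estimate, so the share of such reads in the CCT6A and CCT8 levels was not tested.

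The 10 genes lie on 9 chromosomes of hg38. In GENCODE release 44 TCP1 runs from 159778498 to 159789703 on chromosome 6 and CCT6A from 56051685 to 56063989 on chromosome 7. CCT7 runs from 73233420 to 73253021 and CCT4 from 61868085 to 61888671, both on chromosome 2. CCT5 starts at 10249929 and ends at 10266389 on chromosome 5. In 6 of the 10 genes the start of a coding gene on the opposite strand lay within 1000 bases, against 17.8% of the 11914 coding genes of the table found in the release. The pairs are TCP1 with MRPL18, CCT4 with COMMD1, CCT5 with ATPSCKMT, CCT6A with PSPH, CCT7 with PRADC1 and AHSA1 with VIPAS39, at distances of 32 to 181 bases. The starts used are the outer bounds of the genes in the release, not the starts of the transcripts counted. The listed transcripts start at 73234236 or later in CCT7 and at 64186171 or later in STIP1. In CCT3, on the minus strand, they start at 156338292 or lower, far inside its bound. For these genes the pairing may differ at the starts in use. The partners were less abundant, with 1045 per kb for MRPL18, 551 for PSPH, 341 for PRADC1, 331 for COMMD1 and 71.5 for VIPAS39. ATPSCKMT has no row under that symbol. CCT2 lies on chromosome 12 from 69585426 to 69601570, CCT3 on chromosome 1 from 156308968 to 156367873, CCT8 on chromosome 21 from 29055805 to 29073797, AHSA1 on chromosome 14 from 77457870 to 77469472 and STIP1 on chromosome 11 from 64185272 to 64204543. At its 3′ side TCP1 overlaps ACAT2 on the opposite strand, which had 1455 per kb. CCT3 overlaps TSACC, which has no row, and AHSA1 overlaps VIPAS39 at its 5′ side, each on the opposite strand. Whether strand was used in counting is not stated, so reads from these overlaps cannot be told apart. TCP1, CCT6A and AHSA1 also hold genes of small RNAs within their bounds, among them SNORA20 and SNORA29 in TCP1 and SNORA22B and SNORA15 in CCT6A.

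AU-rich pentamers were read in the 3′UTR of the canonical transcripts, since the study concerns an inhibitor of a protein that binds such stretches. Binding of HuR was not measured in these samples. The paper measured it in other samples of MDA-MB-231 cells, by sequencing RNA immunoprecipitated with HuR, and that result was not used here. The release holds newer versions of all 10 canonical transcripts, each shorter than the version counted (3293 against 3675 bases in CCT5-001), so the 3′UTRs read here may differ in extent from those behind the read counts. The 3′UTRs of the 10 genes were short, with a median of 331 bases against 1365 for 11903 genes of the table, and 9 of the 10 were shorter than that median. AUUUA was found in 9 of the 10, all but CCT8, at 18 places. Of the 11903 genes 74.3% held it, and of the 6606 with a 3′UTR no longer than that of CCT5 57.2%. The heptamer UAUUUAU, which contains AUUUA, was found in 4 of the 10 and in 37.1% of the 11903. These 4 sites are shown because they match the longer motif, 5′ to 3′ on the strand of the gene with AUUUA in capitals.
TCP1, minus strand, chr6:159779014-159779040: auguuccuuuuAUUUAuaacaauguua
CCT5, plus strand, chr5:10264849-10264875: caucuacaguuAUUUAuuguuacaucc
CCT6A, plus strand, chr7:56063855-56063881: uccacgagauuAUUUAuauauaguugg
STIP1, plus strand, chr11:64204229-64204255: caucucucuauAUUUAuacauaacccc

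The transcripts decide how much of the mRNA carries these sites. The TCP1 site shown, at base 16 after the stop codon, lies in TCP1-001, TCP1-004 and TCP1-005, which had 98.6% of the read count of the gene. The other TCP1 sites, at bases 404 and 525, lie in TCP1-001 alone, with 16.2%. In CCT5 the site at base 77 lies in transcripts with 65.1% of the read count, while those at bases 1270, 1360 and 1577 lie in CCT5-001 alone, with 13.4%. The STIP1 site was in transcripts with 90.8% of the reads and the CCT6A site shown in transcripts with 79.3%. These are shares of read count, and shares of the level per kb differ. By level per kb, the CCT6A site shown lies in the 2 protein-coding transcripts, with 43.6%. In CCT5 the transcript CCT5-008, which holds none of the sites, had 64.1%. The sites shown in STIP1 and TCP1 stayed in most of the level, with 73.3% on STIP1-001 and 49.7% and 36.3% on TCP1-005 and TCP1-004. A site counted in the canonical 3′UTR is thus not always in most of the mRNA that the table lists for the gene.

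**Figure D5:**
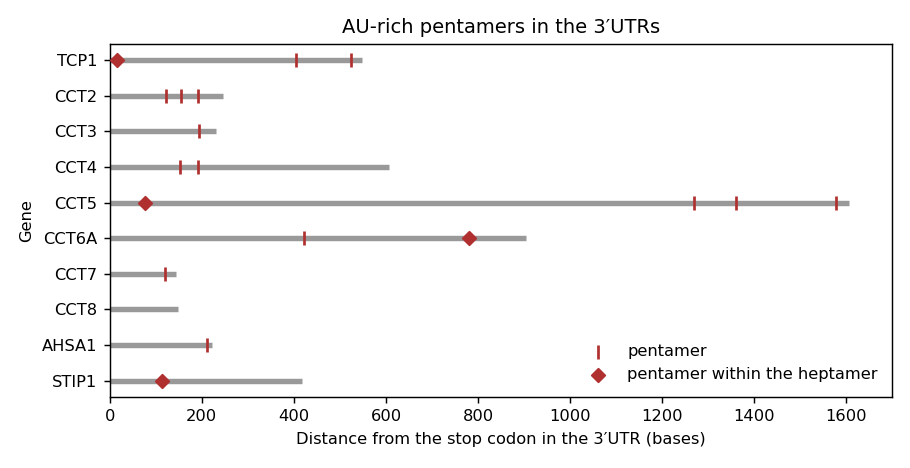
The 3′UTR of the canonical transcript of each gene as a grey bar, with the distance from the stop codon in bases on the x axis. Red ticks mark AU-rich pentamers and red diamonds those within the heptamer. CCT5 has the longest 3′UTR, 1606 bases, and CCT8, with 149 bases, has no mark.

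Heat shock elements were searched in the RefSeq promoter windows of GRCh38.p14, which span 250 bases before to 50 bases after each start. Of the 10 genes 9 had a window, 13 windows in all, and CCT6A had none in the table. The 2-unit repeat, GAANNTTC or TTCNNGAA, each the same on both strands, was found in TCP1, CCT2, CCT4 and STIP1. Counted by window it was in 4 of the 13, and in 13.5% of all 35116 windows. The 3-unit repeat, GAANNTTCNNGAA or its reverse complement TTCNNGAANNTTC, which contains the 2-unit repeat, was found in no member and in 0.490% of all windows. The sites are shown as the candidates that the windows hold, in the direction of the gene, with the repeat in capitals.
TCP1, minus strand, chr6:159789815-159789844: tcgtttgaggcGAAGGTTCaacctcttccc
CCT2, plus strand, chr12:69585789-69585818: cccggagcgaaGAAATTTCtagtgtgggac
CCT4, minus strand, chr2:61888607-61888629: ccggcgccgctTTCTGGAAggtt
STIP1, plus strand, chr11:64186173-64186202: cttctagtaggTTCCAGAAggcggcgcgtg
The repeat starts 231 bases before the RefSeq start in TCP1 and 89 bases before it in CCT2, and 38 bases after it in CCT4 and 13 bases after it in STIP1. CCT2, CCT4 and STIP1 each have another window, with no match. A match of letters is a description and does not show that the factor binds there.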

How the data were processed

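RNA-seq libraries of MDA-MB-231 cells, 2 with DMSO and 2 with 10 µM KH-3 by their labels, were made with an mRNA kit. The authors mapped the reads with STAR to GENCODE transcripts (an earlier release than the reference), assigned them to transcripts by eXpress, and used DESeq2 for the comparison, in versions not given in the sources used here. The deposited mean normalized read count is a signal per transcript, averaged over libraries by the authors. The 3 other numeric columns hold the authors' own comparison (log2 fold change, p-value, q-value) and were not used. With no value per library, depth, replicate spread and a test of KH-3 against DMSO are outside what was computed.

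Levels per kb, percentiles, transcript shares and motif positions were computed with Python 3.11.15, numpy 2.4.6 and pandas 2.3.3, and figures drawn with matplotlib 3.10.9. The computations were tested on simulated data. All 63 transcripts were found by ID in GENCODE release 44, 53 with the deposited length. The other 10 are the canonical transcripts, present in newer and shorter versions, from which coding lengths, 3′UTRs and AUUUA sites were taken. Named are all members, the highest and lowest gene of each list, genes without a row, and in addition some genes chosen after their values were seen (EPCAM, AHSA2, the pseudogenes and the genes next to members). Members and lists were chosen with earlier results of these data known. The 5′ splice site, AUUUA and canonical-transcript descriptions were added after the data were seen.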

Additional observations from a re-analysis of the deposited data

How the results depend on the processing

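A value was said to move when it changed by more than 1.5 times, since no spread between libraries was at hand. With protein-coding transcripts alone the level per kb moved in CCT5 (1133) and CCT6A (3346), because their transcripts of other types were left out. With the transcript of the highest count alone it moved in TCP1 (1216), CCT4 (1559), CCT5 (995), CCT6A (3216) and CCT8 (679). The number of listed transcripts was 38 with a minimum of 50 reads, the members with a heat shock element were 0 with the 3-unit repeat, and those with an AU-rich element were 4 with UAUUUAU, an alternative chosen after the data were seen. The other 34 of 44 alternatives stayed within 1.5 times, but some had little room to move. The percentiles lie near the top of their scale and cannot rise by that factor. A minimum of 50 reads drops only transcripts that carry little of a gene's level. The count is therefore no measure of how stable the results are. The ratio of the highest to the lowest CCT subunit ran from 3.20 without division by length to 4.93 with the highest-count transcript alone. The median percentile ran from 97.7 to 98.4. The planned protein identity of the subunits was not run, as no protein sequence was used here. No paired analysis was possible because the result comes from no test and the mean pools the libraries. Leaving out a replicate could not be done for the same reason, and depth per library is unknown.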

Other observations

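Among the HSP70 genes, HSPA1A and HSPA1B, which encode nearly the same protein from neighbouring copies, had levels of 97.6 and 2935 per kb from 1 listed transcript each. Reads that fit both copies equally well are divided between them by the estimate. Whether the gap is a difference between the genes was not tested. The 7 listed transcripts of HSPA8, the constitutive cytosolic HSP70 that STIP1 links to HSP90, summed to 136 per kb. That sum lay below those of each CCT subunit, STIP1 and AHSA1. HSPH1, the HSP110 exchange factor, had 837 per kb and HSP90AB1 12797. ACTG1, the second cytoplasmic actin and a CCT client, had 591 per kb with 10 listed transcripts, against 24378 for ACTB. These genes were singled out after their values were seen, and the cause of the low sums of HSPA8 and ACTG1 was not tested. Whether the canonical transcripts of these 2 genes are among those listed was not looked up. Of the 4612 genes with a canonical coding transcript and 4 or more listed transcripts, 13.3% had no row for the canonical one. The sums therefore cannot be read as low expression of HSPA8 or ACTG1.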
